A study of Mus musculus with 6 samples.

Results

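A group of 10 genes of leukocyte type were followed in MS5, a line of stromal cells from mouse bone marrow that is used as a feeder layer for blood cells. They are Cd53, Arhgdib, Cd68, Lyz2, Cd14, Ptprc, Csf1r, Laptm5, Tyrobp and Coro1a, 10 of the 19938 genes named on the array, each measured by 1 probe set. They were picked by gene symbol as genes known from blood cells, with their MEK inhibitor minus diluent difference within each experiment and their level against the array median in view. These values are therefore given as a description, without a test. The MEKi cultures received PD184352, an inhibitor of MEK, at 1 μM over 7 days, and the diluent cultures received DMSO alone (0 μM), all in alpha-MEM with fetal bovine serum. There were 3 independent experiments, called series 1, 2 and 3, and each gave 1 MEKi and 1 diluent culture, so that 6 arrays were available, 3 per condition. The values are log2 intensities, normalized by the authors with the robust multichip algorithm (RMA).

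Most of these genes mark cells of the blood, and above all macrophages. Cd53 encodes a tetraspanin, a scaffold protein of the leukocyte membrane, and Arhgdib a cytosolic regulatory protein that is abundant in blood cells. Cd68 encodes a heavily glycosylated protein of late endosomes and lysosomes, a common macrophage marker that is also found in fibroblasts. Lyz2 encodes lysozyme, Cd14 the lipopolysaccharide co-receptor, Ptprc the phosphatase CD45, Csf1r the receptor for CSF1 and IL-34, Laptm5 a lysosomal membrane protein, Tyrobp the signalling adaptor DAP12 and Coro1a an actin-binding coronin. MEK activates the ERK kinases, which act on ETS and AP-1 transcription factors.

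In MEKi cultures, Cd53, Arhgdib and Cd68 had lower values than in the diluent culture of the same series in all 3 series, by 0.75, 0.79 and 0.61 on the log2 scale on average. Lyz2 and Cd14 were higher in all 3 series, by 0.42 and 0.25. The other 5 members lay below the array median on every array and differed by at most 0.17 on average. At an adjusted p under 0.05 from limma, 0 of the 10 members passed, against 0.159% of all probe sets (46 of 28853; 0.0555% lower and 0.104% higher). At an unadjusted p under 0.05, 5 members passed in limma (3 lower and 2 higher), against 9.89% of all probe sets. By an analysis of variance, the kind of test in the study's methods, here at p at most 0.05 and 1.5-fold, 2 passed (Cd53 and Arhgdib), against 0.152%. Without the fold limit 3 passed, Cd14 included, against 3.56%, and after Benjamini-Hochberg adjustment 0 members and 0.0% of all probe sets passed. A mean at least 1.5-fold lower was found for 3 members, against 0.288%. Since the same differences chose the members, nothing is read from these counts.

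The upstream sequences of the 3 lower genes are shown because these genes were lower with an inhibitor of a pathway that acts on ETS and AP-1 factors. They are the 250 bases before a transcription start site in RefSeq on GRCm38.p6, all on the minus strand. Capitals mark matches on either strand to the ETS core GGAAGT or to the AP-1 site TGANTCA (the same on both strands); these letter strings do not overlap.
Cd68, chr11:69666171-69666420: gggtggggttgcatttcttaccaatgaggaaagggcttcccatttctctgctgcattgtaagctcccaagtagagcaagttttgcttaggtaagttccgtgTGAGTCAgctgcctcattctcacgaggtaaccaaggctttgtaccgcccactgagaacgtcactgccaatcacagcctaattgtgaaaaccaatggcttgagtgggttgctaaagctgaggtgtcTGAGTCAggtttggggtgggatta
Arhgdib, chr6:136941504-136941753: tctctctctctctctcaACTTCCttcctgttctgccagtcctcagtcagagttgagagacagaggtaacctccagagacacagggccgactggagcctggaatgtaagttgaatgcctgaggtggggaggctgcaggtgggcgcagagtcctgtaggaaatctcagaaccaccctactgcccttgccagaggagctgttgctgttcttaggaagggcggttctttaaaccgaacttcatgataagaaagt
Cd53, chr3:106790150-106790399: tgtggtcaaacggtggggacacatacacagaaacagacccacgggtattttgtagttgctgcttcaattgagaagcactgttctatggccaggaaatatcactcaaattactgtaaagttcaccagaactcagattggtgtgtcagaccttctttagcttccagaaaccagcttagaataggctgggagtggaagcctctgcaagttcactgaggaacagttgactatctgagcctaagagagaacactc

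The upstream sequence of Cd68 held 2 AP-1 matches, at positions −149 to −143 and −24 to −18, counted from the start site at position 1 with no position 0. Of 32851 RefSeq windows of the same length (250 bases before to 50 after a start site), 7.81% held at least 1 AP-1 match and 0.46% at least 2. The ETS core was found in 23.8% of the windows. It occurred in the Cd68 window at positions 12 to 17 and in the Cd53 window at positions 7 to 12, both past the printed bases. Arhgdib has 3 windows, of which the printed one held the ETS core at −233 to −228 and again at 29 to 34, while the other windows had no match. Of the members, 7 had windows in the table, 11 windows in all, and no other member held an AP-1 match. Lyz2, Laptm5 and both windows of Ptprc held the ETS core. These are matches of letters, and no binding was measured. The motifs were chosen after values or sequences had been seen, so nothing is read from the shares of windows.

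Cd53 had RMA values of 6.43, 6.0 and 5.95 in the MEKi cultures of series 1, 2 and 3, against 7.08, 7.01 and 6.53 in the diluent cultures. All 3 MEKi values lay below all 3 diluent values. The differences were −0.65, −1.01 and −0.58, a mean of −0.75 ± 0.23 (SD, n = 3 series), so that the MEKi level was 0.60 of the diluent level. Series 2 had the largest difference. The groups of Arhgdib did not overlap either, with 8.34, 7.75 and 8.13 in MEKi cultures against 8.92, 8.87 and 8.80 in diluent cultures. Its diluent values lay within 0.12 of each other, while its MEKi values spread over 0.59. The differences of Arhgdib were −0.58, −1.12 and −0.67, a mean of −0.79 ± 0.29 (SD, n = 3), or 0.58 of the diluent level. As for Cd53, series 2 had the largest difference.

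Cd68 had values of 9.69, 8.96 and 10.67 in the MEKi cultures of series 1, 2 and 3, against 10.62, 9.10 and 11.41 in the diluent cultures. Here the groups overlapped, and the spread between series was larger than the difference between conditions. The diluent values of Cd68 ranged over 2.31 and the MEKi values over 1.71, with series 3 highest and series 2 lowest in both conditions. Its differences were −0.93, −0.14 and −0.74, a mean of −0.61 ± 0.41 (SD, n = 3). Series 2, with the largest fall of Cd53 and Arhgdib, had the smallest difference of Cd68. In a bulk culture, fewer cells that carry a transcript and less of it per cell cannot be told apart.

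**Figure D1:**
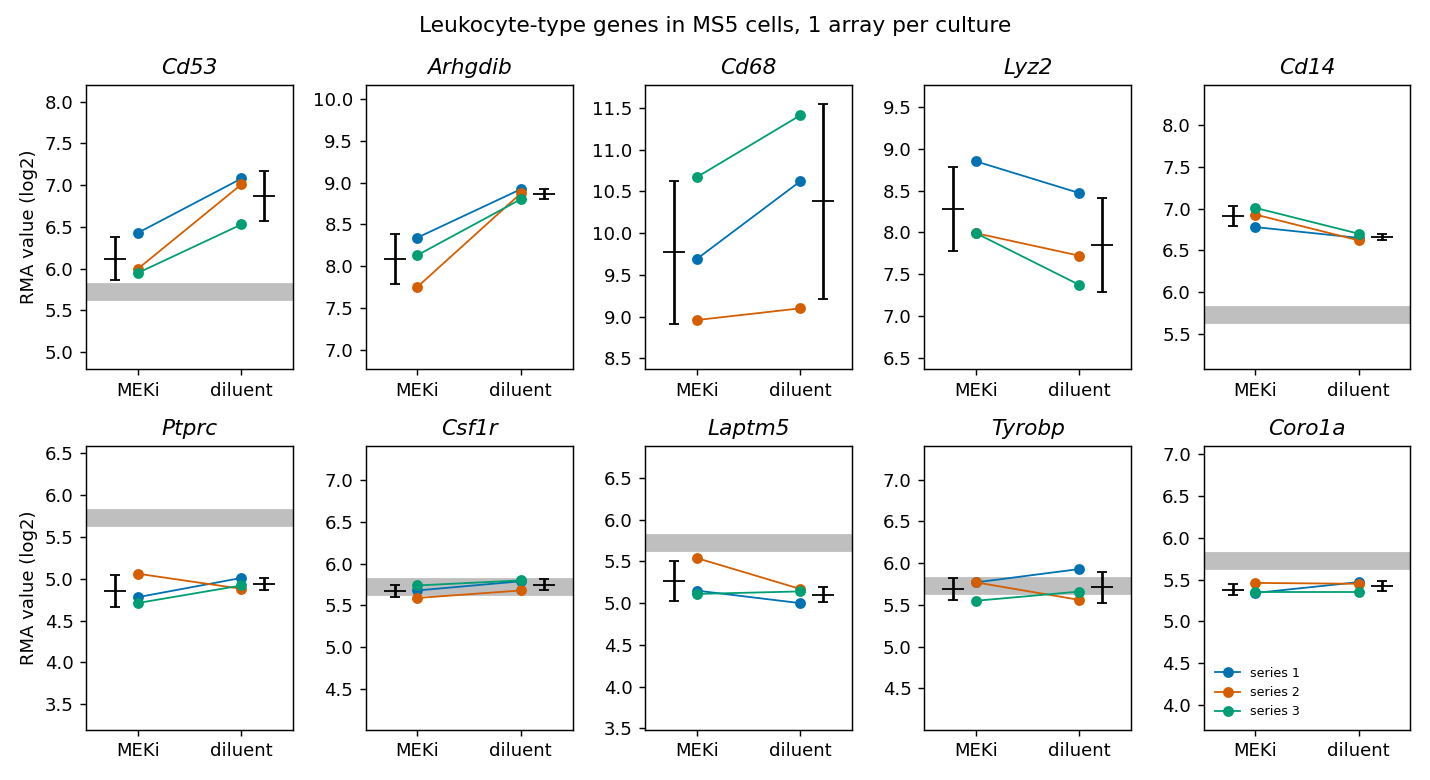
RMA values on the log2 scale (y axis) of the 10 genes in MEKi and diluent cultures (x axis), with 1 array per culture. Coloured lines join the cultures of a series, black bars are the mean ± SD of 3 cultures, every panel spans the same number of log2 units, and the grey band is the 95th percentile of olfactory receptor probe sets on the arrays (5.65 to 5.80). The MEKi and diluent values of Cd53 and Arhgdib do not overlap, those of Cd68 do, and Ptprc, Laptm5 and Coro1a lie below the band.

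Lyz2 had values of 8.85, 7.99 and 7.99 in MEKi cultures against 8.47, 7.72 and 7.37 in diluent cultures. The groups overlapped, since the diluent culture of series 1 lay above the MEKi cultures of series 2 and 3. The differences were 0.38, 0.27 and 0.62, a mean of 0.42 ± 0.18 (SD, n = 3), or 1.34 times the diluent level. Lyz1, a close paralog of Lyz2 named here for its shared sequence, had 6.79, 6.46 and 6.28 in MEKi cultures against 6.48, 6.33 and 6.20 in diluent cultures. Probes can bind the RNA of a near-identical gene, so that the values of Lyz2 and Lyz1 are uncertain to that extent.

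Cd14 had values of 6.78, 6.93 and 7.01 in MEKi cultures against 6.65, 6.62 and 6.70 in diluent cultures. The groups did not overlap, and the diluent values lay within 0.07 of each other. The differences of Cd14 were 0.13, 0.31 and 0.32, a mean of 0.25 ± 0.11 (SD, n = 3). In all, the groups did not overlap for 2 members that were lower (2.17% of all probe sets) and for 1 that was higher (5.69%), 3 in all against 7.86% of all probe sets. Counted by series, 4 members were lower in every series (7.98% of all probe sets) and 2 were higher (23.8%).

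The phosphatase gene Ptprc, which is active in nearly all white blood cells, had 4.78, 5.06 and 4.71 in MEKi cultures against 5.01, 4.88 and 4.92 in diluent cultures. Its differences changed sign between series (−0.23, 0.18 and −0.21). Csf1r, the receptor that macrophages need for survival, had 5.68, 5.59 and 5.74 in MEKi cultures against 5.79, 5.68 and 5.80 in diluent cultures. Csf1r was lower in each series, by 0.08 on average, which is less than the range of its diluent values (0.12). Laptm5 had 5.15, 5.54 and 5.11 in MEKi cultures against 5.0, 5.17 and 5.14 in diluent cultures. Tyrobp had 5.77, 5.77 and 5.55 in MEKi cultures against 5.93, 5.56 and 5.66 in diluent cultures. Coro1a had 5.34, 5.46 and 5.35 in MEKi cultures against 5.47, 5.45 and 5.35 in diluent cultures. For these last 3 genes the groups overlapped, the sign varied between series and the means differed by 0.17, −0.02 and −0.04. The median difference of the 10 members was −0.06, beside 0.037 over all probe sets.

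**Figure D2:**
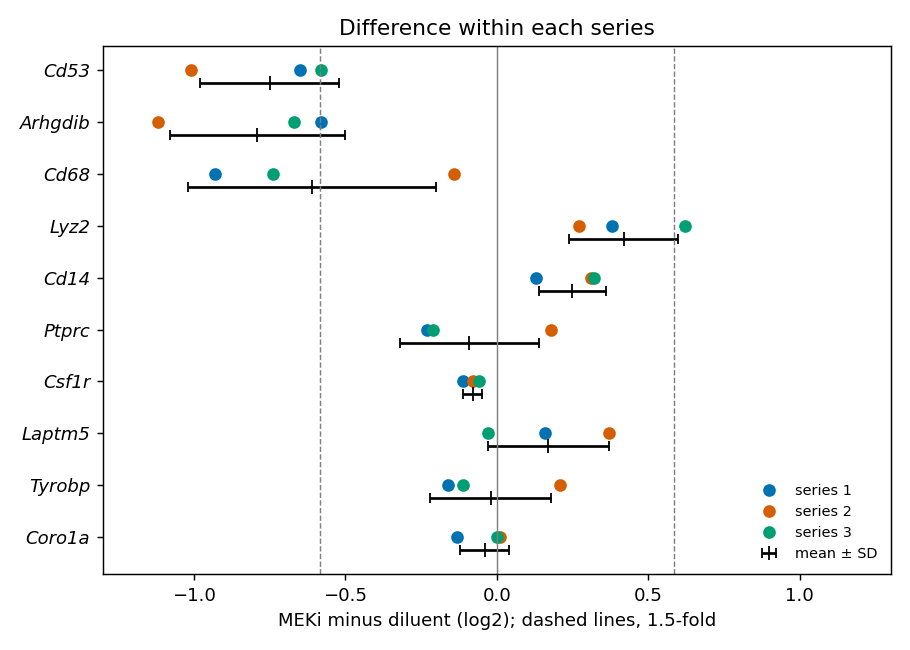
Differences of MEKi from diluent cultures, as log2 (x axis), for the 10 genes (y axis). Coloured points are the 3 series, black bars the mean ± SD of 3 series, and dashed lines mark a 1.5-fold change. The points of Cd53, Arhgdib and Cd68 all lie below 0 and those of Lyz2 and Cd14 all above 0; series 2 is farthest from 0 for Cd53 and Arhgdib and nearest to 0 for Cd68.

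At 1.5-fold (0.585 on the log2 scale) in every series, 0 members were lower, against 0.0624% of all probe sets. Cd53 missed this limit in series 3 (−0.58), Arhgdib in series 1 (−0.58) and Cd68 in series 2 (−0.14). At 1.3-fold in every series, Cd53 and Arhgdib were lower, against 0.187% of all probe sets. With each array centred on its median, Cd53 was at least 1.5-fold lower in every series. Without series 1, 2 or 3, 1 member met that limit each time, namely Arhgdib, Cd68 and Cd53. Each met it because the series in which it had missed was left out.

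The level of a probe set also depends on its probes, so that levels place a gene on the array but do not rank genes. Array medians ran from 6.29 to 6.38. The 1035 probe sets of olfactory receptors, genes that a stromal cell is not expected to use, had a median of 4.15 and a 95th percentile of 5.71 (means over 6 arrays). On all 6 arrays, 5 members lay above the 95th percentile of these receptors on the same array, namely Cd53, Arhgdib, Cd68, Lyz2 and Cd14. Cd68 stood at 2.58 to 5.09 above the array median and Arhgdib at 1.37 to 2.63 above it. Cd53 crossed the array median, from −0.39 to 0.79 relative to it. Ptprc, Laptm5 and Coro1a were above the receptor limit on 0 arrays, Tyrobp on 1 and Csf1r on 3. Ptprc stood at −1.62 to −1.28 relative to the array median, with a mean level above 78.7% of the receptor probe sets.

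The stromal identity of the cultures was read from 15 measured stromal markers. Col1a1, a collagen chain, averaged 11.06 in MEKi cultures and 10.95 in diluent cultures. Cxcl12, the chemokine that retains blood stem cells, averaged 12.25 and Pdgfrb, a growth factor receptor of mesenchymal cells, 11.99 in MEKi cultures, against 12.02 and 11.95 in diluent cultures. In all, 12 of the 15 stromal markers lay above the receptor limit on every array and 3 on 0 arrays. These 3 were Thy1 (5.60 in MEKi and 5.62 in diluent cultures on average), Nt5e (4.69 and 4.85) and Lepr (4.07 and 4.17). The largest differences of this list were lower values in MEKi cultures. Vcam1, an adhesion molecule that binds blood cells, had 9.24, 9.52 and 9.24 in MEKi cultures against 9.98, 10.0 and 9.73 in diluent cultures, a mean log2 difference of −0.57 (SE 0.08, adjusted p = 0.0942 by limma). The matrix gene Postn had 6.34, 6.36 and 6.29 in MEKi cultures against 7.54, 6.59 and 6.73 in diluent cultures (−0.62, SE 0.17, adjusted p = 0.32 by limma). Neither gene had overlapping groups.

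Of 31 measured macrophage and monocyte markers, 23 were above the receptor limit on 0 arrays. These included the defining genes Adgre1 (4.24 in MEKi and 4.18 in diluent cultures on average), Itgam (5.08 and 5.08), Fcgr1 (5.36 and 5.31), Aif1 (5.24 and 5.05), Mpeg1 (5.23 and 5.42) and Spi1 (4.83 and 4.76), which encodes PU.1, a transcription factor of myeloid cells. The summed linear intensity of the list was 1996 to 2329 in MEKi cultures and 2073 to 2581 in diluent cultures, which overlap. In such a sum the brightest genes, here Trem2 and Siglec1, weigh most, and each of the defining genes weighs little. The part of macrophages or monocytes in the differences of Cd53, Arhgdib and Cd68 was not tested beyond these levels. On every array 6 markers were above the limit, among them Trem2 and Siglec1. Trem2, a lipid receptor that signals through DAP12, had 9.72, 9.14 and 9.80 in MEKi cultures against 9.70, 9.85 and 9.76 in diluent cultures. Only the MEKi culture of series 2 was low, and the log2 difference of Trem2 was −0.22 (standard error 0.15, adjusted p = 0.682 from limma). Siglec1, a sialic acid receptor, had 6.96, 8.16 and 8.48 in MEKi cultures against 7.24, 9.17 and 8.23 in diluent cultures. Its sign varied between series, and the mean log2 difference was −0.35 (SE 0.21, adjusted p = 0.643 by limma).

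**Figure D3:**
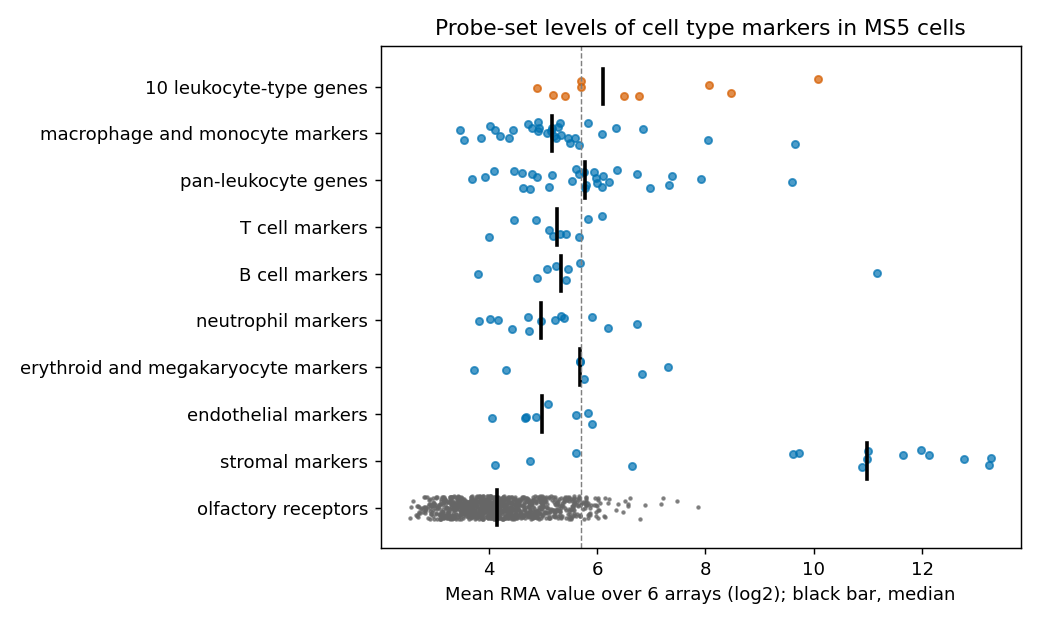
Mean RMA value over the 6 arrays, in log2 units (x axis), for the genes of each marker list (y axis), 1 point per gene; black bars are list medians and the dashed line is the 95th percentile of the olfactory receptors (5.71). The stromal markers lie to the right of the line in 12 of 15 cases, and 23 of 31 macrophage and monocyte markers were below the limit on every array.

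Of 30 measured pan-leukocyte genes, 13 lay above the receptor limit on every array and 13 on 0 arrays. The integrin gene Itgb2, whose product is the shared chain of the leukocyte integrins, had 7.19, 7.21 and 7.24 in MEKi cultures against 7.69, 7.37 and 7.65 in diluent cultures. The groups of Itgb2 did not overlap, and the mean log2 difference was −0.36 (SE 0.09, adjusted p = 0.262 by limma). Itgal, a partner chain, averaged 6.02 in MEKi cultures and 6.20 in diluent cultures. Vav1, a guanine nucleotide exchange factor of blood cells, averaged 4.60 in MEKi cultures and 4.61 in diluent cultures, below the limit on every array. The list had a median difference of 0.007, and its summed intensity was 2557 to 2646 in MEKi cultures and 2627 to 2770 in diluent cultures. Markers of T cells, B cells, neutrophils, erythroid and megakaryocyte cells and endothelial cells had medians of 0.041, 0.047, 0.099, 0.03 and 0.069, near or above the 0.037 of all probe sets. Above the receptor limit on every array were 2 of 10 T cell, 1 of 8 B cell, 2 of 13 neutrophil, 2 of 7 erythroid and megakaryocyte and 2 of 8 endothelial markers, and on 0 arrays 7, 6, 10, 2 and 6 of them, in the same order. Of the defining markers, Cd3e of T cells (6.11 in MEKi and 6.08 in diluent cultures on average) and Elane of neutrophils (6.73 and 6.73) were above it on 6 arrays and Klf1 of erythroid cells on 2, while Cd2, Cd79a, Ms4a1, S100a8, S100a9, Pf4 and Pecam1 were above it on 0.

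Over the 17 lists, 257 measured genes were not members, and 0 of them passed at an adjusted p under 0.05 from limma (smallest adjusted p = 0.0942). At an unadjusted p under 0.05, 12 were higher and 16 lower, and the analysis of variance with its 1.5-fold limit gave 0. The background for these counts is 7.58% higher and 2.31% lower over all probe sets.

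The gene families of Cd53 and Cd68 are given next, with the other genes of their lists. Of 28 tetraspanins other than Cd53, 0 passed, and the median was 0.067. In every series 9 of them were higher and 2 lower, against 23.8% and 7.98% of all probe sets. Cd9, Cd63 and Cd81, tetraspanins of most cell types, differed by −0.04, 0.03 and −0.01. Cd37, a tetraspanin of lymphocytes, averaged 5.93 in MEKi cultures and 5.97 in diluent cultures. Cd82 was lower in every series, by 0.26 in log2 on average (adjusted p = 0.374 in limma). Tspan15 was higher by 0.26 on average (adjusted p = 0.52 in limma), with differences of 0.27, −0.03 and 0.54.

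Cd68 belongs to the family of lysosomal membrane glycoproteins, whose main members Lamp1 and Lamp2 differed by 0.04 and 0.05. Of 35 measured lysosomal genes, 0 passed, and the median was 0.031. In every series 13 of them were higher and 3 lower, against 23.8% and 7.98% of all probe sets. The proteases Ctsd and Ctsb differed by −0.03 and 0.15. Atp6v0d2, a proton pump subunit known from osteoclasts and macrophages, had 9.01, 8.93 and 9.23 in MEKi cultures against 9.28, 9.19 and 9.84 in diluent cultures. It was lower in every series (log2 difference −0.38, adjusted p = 0.265 from limma, standard error 0.09). Man2b1, a lysosomal mannosidase, differed in the other direction (0.32, adjusted p = 0.267). Laptm4a and Laptm4b, relatives of Laptm5, each differed by −0.01, and Coro1b and Coro1c, coronins of other tissues, by 0.02 and 0.03. Of 6 measured coronins other than Coro1a, 0 passed, and the median was 0.027. In every series 1 of them was higher and 2 lower, against 23.8% and 7.98% of all probe sets. The largest differences were those of Coro2b (−0.29, adjusted p = 0.329 by limma) and Coro7 (0.15, adjusted p = 0.591).

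The partners of Cd14 gave mixed values. Tlr2, a receptor for bacterial lipopeptides, had 8.14, 7.78 and 7.49 in MEKi cultures against 7.60, 7.52 and 7.16 in diluent cultures, higher in every series (log2 difference 0.38, standard error 0.08, adjusted p = 0.215 from limma). Tlr4 and Ly96, which form the lipopolysaccharide receptor, differed by −0.15 and −0.04, and Lbp, which delivers lipopolysaccharide to CD14, by −0.13. Of 19 measured genes of this list, 0 passed and the median was 0.093. Csf1 and Il34, the ligands of the Csf1r product, differed by 0.07 and −0.01, with Csf1 at an average of 10.20 in MEKi cultures and 10.13 in diluent cultures. Csf2rb, the common chain of the GM-CSF, IL-3 and IL-5 receptors, had 7.91, 7.95 and 9.03 in MEKi cultures against 8.50, 8.33 and 9.30 in diluent cultures. Its groups overlapped, while each series was lower (log2 difference −0.41, standard error 0.09, adjusted p = 0.192 from limma).

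Downstream of DAP12, the kinase gene Syk averaged 5.22 in MEKi cultures and 5.16 in diluent cultures, below the receptor limit on all arrays. Plcg2, a phospholipase of immune receptor signalling, had 6.81, 6.52 and 6.51 in MEKi cultures against 7.21, 6.97 and 6.95 in diluent cultures. The summed linear intensity of the DAP12 and Fc receptor list was 1954 to 2251 in MEKi cultures and 2315 to 2382 in diluent cultures, which do not overlap. In such a sum the brightest genes weigh most. These are Trem2 (9.55 in MEKi and 9.77 in diluent cultures on average) and Sirpa (9.60 and 9.73), while Plcg2 is weaker (6.61 and 7.04). In series 1, 2 and 3, Trem2 differed by 0.02, −0.71 and 0.04, and Sirpa by −0.19, −0.05 and −0.14. The part of each gene in the lower sum was not tested. The groups of Plcg2 did not overlap, and its differences of −0.40, −0.45 and −0.44 were nearly equal (mean −0.43, standard error 0.07, adjusted p = 0.133 from limma). Ptpre, a receptor-type phosphatase related to CD45, was lower by 0.33 on average (adjusted p = 0.212 from limma). Of the haematopoietic transcription factors, Runx1 averaged 10.57 in MEKi cultures and 10.60 in diluent cultures, Cebpa 9.89 and 9.62, and Cebpb 7.98 and 8.23. The median of that list was 0.013.

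**Figure D4:**
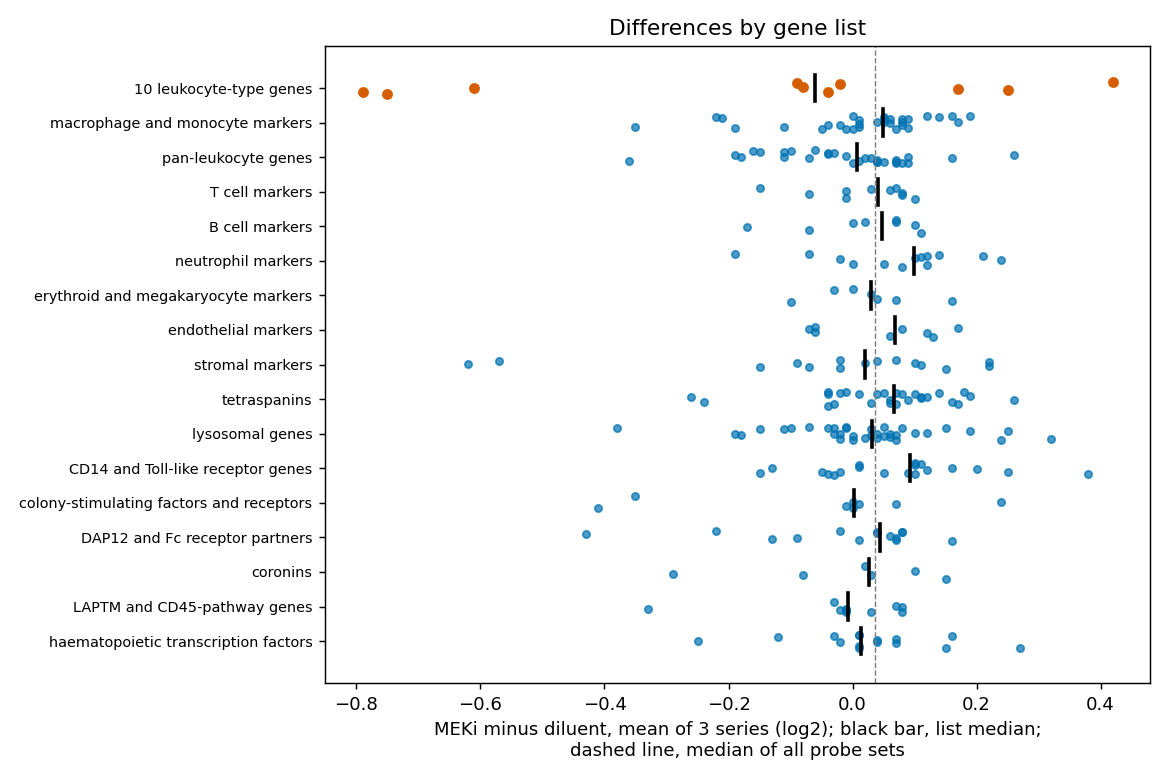
Difference of MEKi from diluent cultures, mean of 3 series, as log2 (x axis), for the 10 genes and for the genes of the lists shown (y axis), 1 point per gene; black bars are list medians and the dashed line is the median of all probe sets (0.037). Arhgdib, Cd53 and Cd68 lie farthest left of the 10 genes at −0.79, −0.75 and −0.61, and the list medians lie between −0.007 and 0.099.

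The genes with the most similar pattern were found as those whose values over the 6 arrays, each centred on its mean, differed least from those of the gene (root mean square difference, 19937 genes compared). The 6 arrays share 3 series and 2 conditions, and the genes were ranked by likeness only, so no test is given. Nearest to Cd53 were Lgr6 (0.157), a receptor for R-spondins, Eps8 (0.183), an actin-capping protein, Arhgdib (0.19), Ces1g (0.192), a carboxylesterase, and Sparcl1 (0.203), a matrix protein. Nearest to Arhgdib were Sparcl1 (0.086), Kcnn4 (0.178), a potassium channel, Cd53 (0.19), Lgr6 (0.194) and Klf5 (0.21), a transcription factor. Cd53 and Arhgdib were thus each the third nearest gene of the other. The step between conditions that they share was in view when the members were picked, so nothing is read from this rank. Sparcl1 had 8.53, 8.12 and 8.29 in MEKi cultures against 9.08, 8.99 and 9.09 in diluent cultures, a pattern nearly that of Arhgdib. Lgr6 had 7.96, 7.40 and 7.52 in MEKi cultures against 8.50, 8.86 and 8.24 in diluent cultures, and series 2 had its largest difference too (−1.46).

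Nearest to Cd68 was a separate group. It held Mthfd1l (0.118), a mitochondrial folate enzyme, Ier3 (0.145), an early response gene, Ak4 (0.153), a mitochondrial adenylate kinase, Gas2l3 (0.17), a cytoskeletal linker, and Bhlhe40 (0.193), a transcription factor that also responds to hypoxia. Ak4 had 6.66, 5.76 and 7.52 in MEKi cultures against 7.61, 6.38 and 8.39 in diluent cultures. Mthfd1l had 8.46, 7.71 and 9.30 against 9.33, 8.02 and 9.95. Like Cd68, all 5 were highest in series 3 and lowest in series 2 in either condition, and lower with MEKi in every series. Cd68 and Cd53 lay 0.974 apart, and 0.815 separated Cd68 from Arhgdib, against root mean squares of 0.44 for Cd53, 0.43 for Arhgdib and 0.89 for Cd68 themselves. Ranked by likeness to Cd68, Arhgdib was 1309 and Cd53 15984 of 19937. Ranked by likeness to Cd53, Cd68 was 19874, and this measure places any gene with a spread as large as that of Cd68 far from Cd53.

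**Figure D5:**
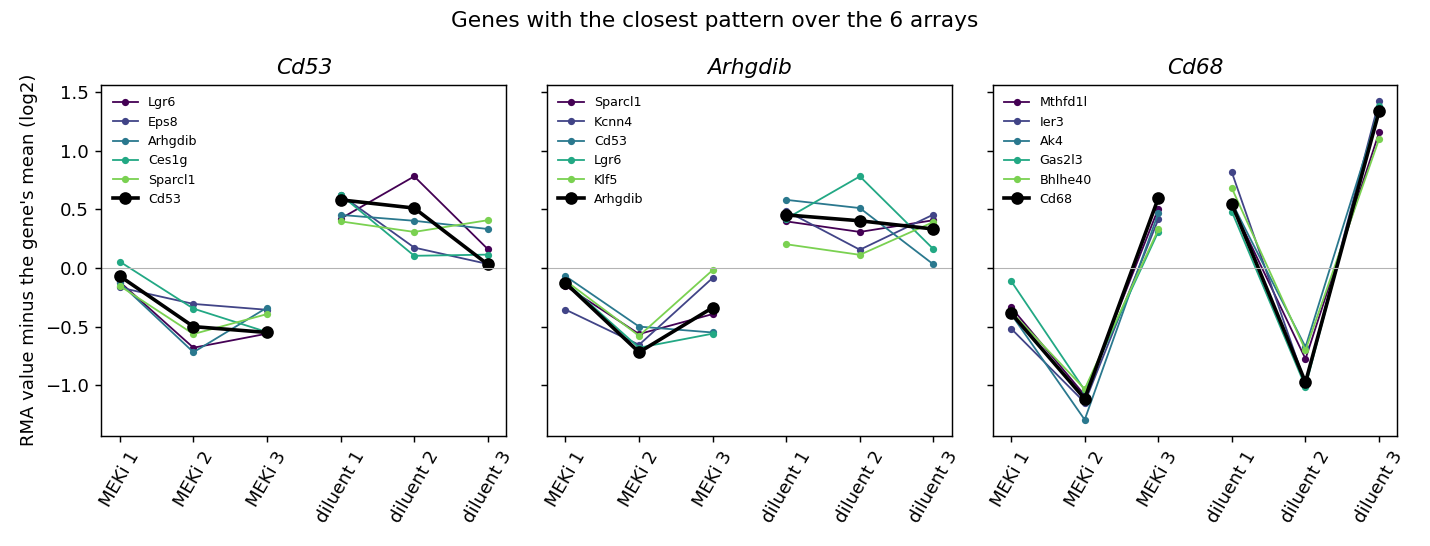
RMA value minus the gene's mean over the 6 arrays on the log2 scale (y axis) for each array (x axis); black, Cd53, Arhgdib or Cd68, and coloured, the 5 genes with the lowest root mean square difference. Cd53 and Arhgdib share a step between MEKi and diluent arrays, a difference that was in view when they were picked. Cd68 and its 5 nearest genes are low in both arrays of series 2 and high in both arrays of series 3.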

How the data were processed

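Total RNA of each MS5 culture was hybridized to an Affymetrix mouse Gene ST array. The authors ran RMA (background correction, quantile normalization and summary by probe set) and deposited its log2 output for 28853 probe sets. Their notes also name Partek, and versions and a genome build are not given in the sources used here. These values were used without a filter, and 0 array columns were left out. Precision is limited by having 6 arrays. Of the probe sets, 21789 name 1 gene, 1621 several and 5443 none; a gene with several was represented by the brightest.

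MEKi was compared with diluent in limma 3.58.1 (R 4.3.3; lmFit and eBayes) with the series as a block, with Benjamini-Hochberg adjustment across the whole array and a threshold of 0.05. The methods' analysis of variance was run as an alternative. Their text writes its p limit with a percent sign, and 0.05 as a fraction was used here. Labels and methods give 1 culture per condition and series, and arrays of the same series deviated together from the mean of their condition (r = 0.81, 0.59 and 0.62 over probe sets, which are not replicates; other pairs −0.61 to 0.21). The members and the 17 gene lists were chosen with earlier results of these data known. All members were named; of each list, defining genes, the largest differences and genes past the threshold could be named, and for Cd53, Arhgdib and Cd68 the 5 nearest genes. Lyz1 and the motifs were chosen after values or sequences had been seen. Some listed genes were not analysed here, and 1 list is counted in the totals but not reported on its own here. Promoter sequences and their coordinates are those of RefSeq (GRCm38.p6), not of the array.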

Additional observations from a re-analysis of the deposited data

How the results depend on the processing

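The number of probe sets past the threshold (46) became 0 with no replicate block, 0 with a random replicate block, 0 with arrays centred on their medians, 15 after a further quantile normalization, 25 among brighter probe sets, 115 with an intensity trend and robust prior, 0 by the analysis of variance after Benjamini-Hochberg and 2853 at an unadjusted p under 0.05 (a threshold added after the data were seen). It ran from 0 to 37 with 1 series left out, with 14 without series 1 and 0 without series 2. Of the members, 0 passed in the main comparison. Cd53 and Arhgdib made it 2 when only probe sets naming 1 gene were tested (61 probe sets passed there), 2 with the intensity trend and 2 by the analysis of variance with 1.5-fold, and 5 passed at an unadjusted p. With no replicate block or 1 series left out, the count of members stayed at 0. Among list genes, 1 passed with probe sets naming 1 gene (Vcam1) and 2 with the intensity trend (Vcam1 among them). The count of members at least 1.5-fold lower in every series (0) became 1 after centring and 2 at 1.3-fold. It was 1 each time with 1 series left out, the series in which that member had missed the limit.

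The mean difference of Cd53 ran from −0.83 to −0.62 over 10 alternatives, that of Arhgdib from −0.89 to −0.62, of Cd68 from −0.84 to −0.44, of Lyz2 from 0.33 to 0.50 and of Cd14 from 0.20 to 0.31. These kept their sign throughout, while Tyrobp (−0.13 to 0.05) and Coro1a (−0.07 to 0.01) did not. Without series 2 the value of Cd68 was −0.84 and without series 1 −0.44. Averaging the probe sets of a gene was not run, each member having 1. The cause of these changes was not tested. Precision is limited by 3 arrays per condition.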
